A study of Homo sapiens with 9 samples.

Results

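The genes described here are 31 human genes that encode the enzymes of glycolysis and the pentose phosphate pathway. They were named from textbook pathways with earlier results of these data known, by a rule that uses no signal value, and each was represented by its brightest array probe. All 31 had a probe and passed the filter on low signal, among 18665 genes with a named probe and 13118 genes tested. Between them they had 56 probes, of which 49 passed the filter, and 13 of the genes had more than 1 probe that passed. The RNA came from HCT116, an established human colorectal carcinoma cell line. The cells received GANP siRNA, NXF1 siRNA or control siRNA, and their cytoplasmic RNA, released by permeabilising the plasma membrane with digitonin, was collected 72 h after transfection. Each of the 3 groups had 3 arrays, 1 from each of 3 separate depletion experiments, so that every experiment held all 3 groups, and arrays are numbered by experiment. As the methods of the study give it, the control siRNA matched the GANP siRNA apart from a pair of bases. Each depletion behind the arrays used a transient siRNA in 1 cell line. The study also measured some target mRNAs by qRT-PCR in another human cell line after GANP depletion. NXF1 is the main export receptor that carries mRNA through the nuclear pore, and GANP is a scaffold protein of an export complex at the pore. The groups therefore ask which mRNAs of central carbon metabolism were more or less abundant in the cytoplasm when either factor was depleted.

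Glycolysis splits glucose into pyruvate in the cytosol and yields ATP and NADH. Hexokinases trap glucose in the cell, phosphofructokinase commits it to breakdown, and the enzymes from aldolase to pyruvate kinase carry the carbon on to pyruvate, which lactate dehydrogenase reduces to lactate. The pentose phosphate pathway branches from glucose phosphate, and it makes NADPH in its oxidative arm and ribose phosphate for nucleotides in its non-oxidative arm. Many steps are served by several isozymes encoded by separate genes, and tumour cells of the colon, like other proliferating cells, are known for high glycolytic flux.

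MCM3AP, which encodes GANP, changed by -1.04 on the log2 scale (standard error, SE, 0.10; adjusted p = 7.0e-05) with GANP siRNA, and NXF1 was not analysed here. Quantile normalized signals had a median of 95.2 to 95.3 on every array, and 3 arrays per group limit the precision. Equal amounts of RNA were labelled, so every rise or fall is relative to the other mRNAs of the same array, and fewer cells and less RNA per cell cannot be told apart. Of 10 colon epithelium markers 8 were tested and VIL1 and LGALS4 did not pass the filter. The summed linear signal of all 10 was 62780 to 66190 with control siRNA, 63755 to 68371 with GANP siRNA and 78062 to 78499 with NXF1 siRNA. Most of this sum came from KRT18 and KRT19, with mean log2 signals of 15.11 and 14.22. Of the 8 tested, 5 rose after NXF1 siRNA (62.5%, against 11.6% of all genes tested), and KRT19, CLDN3 and CLDN4 were not called. After GANP siRNA 0 of the 8 were called (1 with an unadjusted p under 0.05 in limma). Fibroblast markers summed to 686 to 758 in all groups, with 3 of 8 tested and 0 called (0 with an unadjusted p under 0.05 in limma). Blood markers summed to 976 to 1047 with control siRNA, 971 to 1118 with GANP siRNA and 1279 to 1434 with NXF1 siRNA, with 3 of 8 tested, of which HBA1 rose and CD8A fell after NXF1 siRNA, while PTPRC, CD3E, CD4 and HBB did not pass the filter. Fibroblast probes had mean log2 signals of 6.04 to 7.34, and blood probes 6.12 to 6.80 apart from HBA1 at 9.23, against the filter at 6.35. These 2 sums therefore hold mostly signal near the floor and are not read as levels of fibroblast or blood RNA. The part of these marker shifts in the results after NXF1 siRNA was not tested.

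Promoters of 5 genes are shown: HKDC1 and PFKFB4 were called after both depletions, ALDOC differed most between them, and ENO2 fell after NXF1 siRNA where its partner ENO1 was not called. The sequences are RefSeq windows of GRCh38.p14 that run from 250 bases before a transcription start to 50 bases after it. Capitals mark the GC box GGGCGG, to which factors of the SP family bind, the hypoxia response core ACGTG and the E-box CACGTG, to which MYC binds. Each was searched on both strands, and the E-box holds the hypoxia response core on both strands. The windows are ALDOC at chr17:28576846-28577145 on the minus strand, HKDC1 at chr10:69220082-69220381 on the plus strand, PFKFB4 at chr3:48556754-48557053 on the minus strand, ENO1 at chr1:8878637-8878936 on the minus strand and ENO2 at chr12:6914330-6914629 on the plus strand.
ALDOC: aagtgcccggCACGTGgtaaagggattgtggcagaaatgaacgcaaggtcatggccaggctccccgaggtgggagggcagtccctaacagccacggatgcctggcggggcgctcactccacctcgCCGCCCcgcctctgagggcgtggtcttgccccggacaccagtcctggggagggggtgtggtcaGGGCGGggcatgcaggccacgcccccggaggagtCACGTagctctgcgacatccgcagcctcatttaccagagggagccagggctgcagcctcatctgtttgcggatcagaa
HKDC1: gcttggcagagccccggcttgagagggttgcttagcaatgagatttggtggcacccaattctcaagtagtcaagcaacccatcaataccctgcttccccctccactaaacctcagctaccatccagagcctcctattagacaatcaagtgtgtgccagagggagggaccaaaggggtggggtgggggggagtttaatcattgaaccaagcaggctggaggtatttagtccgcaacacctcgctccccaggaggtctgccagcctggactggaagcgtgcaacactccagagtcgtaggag
PFKFB4: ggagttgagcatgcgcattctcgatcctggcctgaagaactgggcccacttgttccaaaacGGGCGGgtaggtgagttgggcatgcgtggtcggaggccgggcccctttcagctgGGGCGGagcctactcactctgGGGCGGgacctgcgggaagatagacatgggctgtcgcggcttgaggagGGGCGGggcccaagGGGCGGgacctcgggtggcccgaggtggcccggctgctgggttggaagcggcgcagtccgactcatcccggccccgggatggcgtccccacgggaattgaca
ENO1: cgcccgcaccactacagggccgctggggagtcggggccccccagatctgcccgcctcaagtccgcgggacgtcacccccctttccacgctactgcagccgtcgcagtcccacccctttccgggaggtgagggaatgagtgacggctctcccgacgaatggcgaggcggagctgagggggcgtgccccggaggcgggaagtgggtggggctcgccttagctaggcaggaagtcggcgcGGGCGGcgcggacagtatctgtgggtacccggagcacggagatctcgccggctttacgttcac
ENO2: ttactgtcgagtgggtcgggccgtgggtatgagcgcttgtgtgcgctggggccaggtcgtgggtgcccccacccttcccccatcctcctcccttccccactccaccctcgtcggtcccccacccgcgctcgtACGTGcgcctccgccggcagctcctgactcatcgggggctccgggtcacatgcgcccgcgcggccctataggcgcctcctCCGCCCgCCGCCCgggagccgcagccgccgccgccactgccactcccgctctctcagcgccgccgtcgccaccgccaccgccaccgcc
The ALDOC window held 2 GC boxes, 1 E-box and 3 matches to the hypoxia response core, 2 of them inside the E-box. The PFKFB4 window held 5 GC boxes and the HKDC1 window none of the 3 motifs. Of the enolases, the ENO1 window held 1 GC box, and the ENO2 window held 2 GC boxes and 1 hypoxia response core. Windows were found for 30 of the 31 genes, 54 in all. A GC box lay in 66.7% of these 54 windows and in 45% of all 35116 windows of the same length, the hypoxia response core in 38.9% and 21.4%, and the E-box in 16.7% and 7.26%. Some genes have several windows that overlap, so the 54 are not independent and some sites are counted repeatedly. By gene, 27 of the 30 had a GC box in at least 1 window, 15 the hypoxia response core and 7 the E-box. Such shares over all genes were not computed. A match is a run of letters and not evidence of binding.

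After GANP siRNA 2 of the 31 genes rose and 3 fell, and after NXF1 siRNA 3 rose and 9 fell. Calls needed an adjusted p under 0.05 in limma together with a log2 fold change beyond 0.25 in size. After GANP siRNA 6.28% of all genes tested were called up and 5.90% down, against 6.45% and 9.68% of the 31 genes. With 2 and 3 genes called, both shares are near the background. After NXF1 siRNA 11.6% of all genes were called up and 14.0% down, against 9.68% and 29.0% of the 31 genes. The study's own annotation of mRNAs that fell only after NXF1 siRNA already listed the pentose phosphate shunt and glucose catabolism. It came from the same arrays, so the 29.0% is not an independent result. The genes that rose after GANP siRNA were HKDC1 and ALDOC, and those that fell were HK2, PFKFB4 and RPIA. HKDC1, PFKFB2 and PFKFB3 rose after NXF1 siRNA, while HK1, PFKL, PFKM, PFKFB4, BPGM, ENO2, ENO3, PGLS and PGD fell. The median log2 fold change of the 31 genes was -0.02 after GANP siRNA and -0.12 after NXF1 siRNA, and it was 0.00 over all genes in both comparisons. Within the single experiments, 18 of the 31 had a lower signal with NXF1 siRNA than with control siRNA in all 3 experiments and 4 a higher one in all 3 (58.1% and 12.9%, against 30.4% and 29.2% of all genes tested). After GANP siRNA these numbers were 12 and 7 (38.7% and 22.6%, against 26.3% and 27.0%). Both comparisons use the same 3 control arrays, so their values are given side by side and not as independent results.

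**Figure D1:**
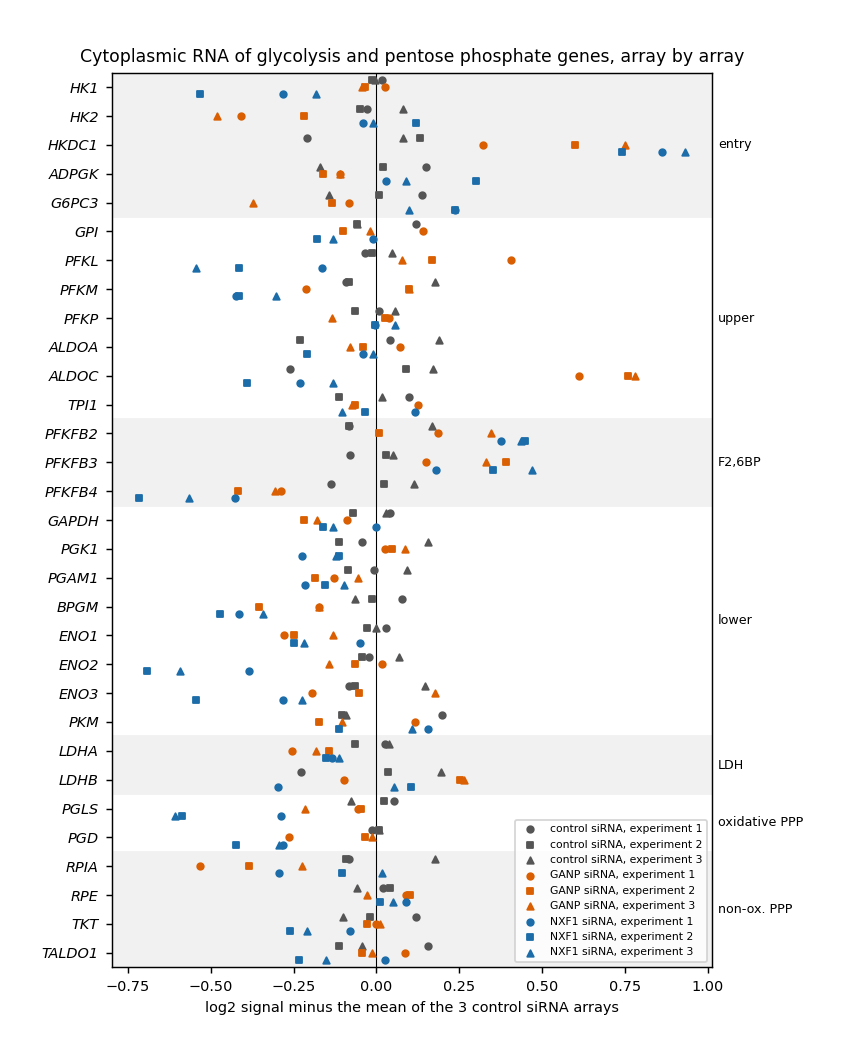
Log2 signal of each array minus the mean of the 3 control siRNA arrays (horizontal axis) for the 31 genes in pathway order (vertical axis), with control siRNA in grey, GANP siRNA in orange, NXF1 siRNA in blue and 1 marker shape per experiment. The GANP siRNA points of ALDOC and the NXF1 siRNA points of ENO2 and PGLS lie apart from the other groups, whereas the groups of TPI1, PKM and PFKP overlap.

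At the entry to the pathway the 3 hexokinase genes each behaved differently. HK1, the hexokinase that binds the outer mitochondrial membrane in most tissues, fell after NXF1 siRNA and HK2, the inducible hexokinase of tumours and muscle, fell after GANP siRNA. HKDC1, a hexokinase-like enzyme of epithelia, rose after both. HK1 had log2 signals of 12.24, 12.21 and 12.22 with control siRNA in experiments 1, 2 and 3, 12.25, 12.19 and 12.18 with GANP siRNA, and 11.94, 11.69 and 12.04 with NXF1 siRNA. All NXF1 siRNA arrays thus lay below all others, and the array of experiment 2 was the lowest. HK1 had a log2 fold change of -0.34 (SE 0.09, adjusted p = 0.014), a level 0.79 times that of control, after NXF1 siRNA and -0.02 (SE 0.09, adjusted p = 0.92) after GANP siRNA. Its call was lost without NXF1 siRNA array 2 (log2 fold change -0.24, adjusted p = 0.058), and its second probe gave a similar fall (-0.31, adjusted p = 0.045).

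HK2 had log2 signals of 8.34, 8.32 and 8.45 with control siRNA, 7.96, 8.15 and 7.89 with GANP siRNA, and 8.33, 8.49 and 8.36 with NXF1 siRNA. Here the GANP siRNA arrays lay below all others and the other groups overlapped. The log2 fold change of HK2 was -0.37 (SE 0.09, adjusted p = 0.016) after GANP siRNA and 0.03 (SE 0.09, adjusted p = 0.88) after NXF1 siRNA. The call was lost without control siRNA array 3 (adjusted p = 0.066) or GANP siRNA array 3 (adjusted p = 0.071). The second HK2 probe gave -0.03 (adjusted p = 0.93) after GANP siRNA, and the mean of both probes -0.20 (adjusted p = 0.24), so the fall rested on the brighter probe. HKDC1 had log2 signals of 6.52, 6.86 and 6.81 with control siRNA, 7.05, 7.33 and 7.48 with GANP siRNA, and 7.59, 7.47 and 7.66 with NXF1 siRNA. Every array of either depletion lay above every control array. HKDC1 rose 1.48-fold after GANP siRNA (log2 fold change 0.56, SE 0.12, adjusted p = 0.0096) and 1.80-fold after NXF1 siRNA (0.85, SE 0.12, adjusted p = 2.6e-04). Both calls held without any 1 array.

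ADPGK, which phosphorylates glucose with ADP in place of ATP, had log2 fold changes of -0.13 (adjusted p = 0.46) after GANP siRNA and 0.14 (adjusted p = 0.34) after NXF1 siRNA. G6PC3, the ubiquitous phosphatase that releases glucose from its phosphate and so opposes hexokinase, had -0.20 (adjusted p = 0.23) and 0.19 (adjusted p = 0.19). Neither gene was called against control siRNA, and the values of both had opposite signs in the 2 depletions.

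In upper glycolysis, the phosphofructokinase genes PFKL and PFKM fell after NXF1 siRNA and the aldolase gene ALDOC rose after GANP siRNA, whereas GPI, PFKP, ALDOA and TPI1 were called in neither. Phosphofructokinase catalyses the committed step, with PFKL as the liver, PFKM as the muscle and PFKP as the platelet type. PFKL had log2 signals of 9.63, 9.65 and 9.71 with control siRNA, 10.07, 9.83 and 9.74 with GANP siRNA, and 9.50, 9.25 and 9.12 with NXF1 siRNA. The 3 groups of PFKL did not overlap, with GANP siRNA highest and NXF1 siRNA lowest. Its log2 fold change was 0.21 (SE 0.11, adjusted p = 0.24) after GANP siRNA and -0.38 (SE 0.11, adjusted p = 0.022) after NXF1 siRNA. The fall was lost without control siRNA array 2 (adjusted p = 0.060) or 3 (adjusted p = 0.070), or NXF1 siRNA array 2 (adjusted p = 0.071) or 3 (adjusted p = 0.096).

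PFKM had log2 signals of 11.07, 11.08 and 11.34 with control siRNA, 10.95, 11.26 and 11.26 with GANP siRNA, and 10.74, 10.75 and 10.86 with NXF1 siRNA. The NXF1 siRNA arrays were the lowest, and the other groups overlapped. For PFKM the log2 fold change was -0.01 (adjusted p = 0.98) after GANP siRNA and -0.38 (SE 0.10, adjusted p = 0.016) after NXF1 siRNA, a call lost without control siRNA array 3 (adjusted p = 0.075) or NXF1 siRNA array 2 (adjusted p = 0.054). PFKP had log2 fold changes of -0.02 (95% interval -0.19 to 0.14) and 0.02 (-0.15 to 0.19) after GANP and NXF1 siRNA. Glucose phosphate isomerase, GPI, which makes fructose phosphate for this step, had 0.01 (-0.19 to 0.20) and -0.11 (-0.30 to 0.09).

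Aldolase cleaves the doubly phosphorylated sugar into trioses, with ALDOA as the ubiquitous and muscle form and ALDOC as the form known from brain. ALDOC had log2 signals of 11.55, 11.90 and 11.98 with control siRNA, 12.42, 12.57 and 12.59 with GANP siRNA, and 11.58, 11.42 and 11.68 with NXF1 siRNA. The GANP siRNA arrays lay above all others, while the control and NXF1 siRNA arrays overlapped. ALDOC rose 1.64-fold after GANP siRNA (log2 fold change 0.72, SE 0.11, adjusted p = 0.0018), a call that held without any 1 array, and it was the largest rise of the 31 genes in that comparison. After NXF1 siRNA its log2 fold change was -0.25 (SE 0.11, adjusted p = 0.13), and without control siRNA array 1, the lowest of the controls, it was called down (-0.38, adjusted p = 0.016). ALDOA ranged from 13.59 to 14.01 over the control arrays, and its log2 fold changes were -0.02 (95% interval -0.25 to 0.22) and -0.09 (-0.32 to 0.14). TPI1, triose phosphate isomerase, had 0.00 (-0.20 to 0.20) after GANP siRNA and 0.00 (-0.20 to 0.19) after NXF1 siRNA, the values nearest to no change among the 31 genes.

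The 3 genes of the bifunctional kinases and phosphatases that set fructose 2,6-bisphosphate, the strongest allosteric activator of phosphofructokinase, were all called after NXF1 siRNA. PFKFB2 and PFKFB3 rose and PFKFB4 fell. PFKFB3, the form with high kinase activity in proliferating cells, had log2 signals of 11.48, 11.59 and 11.61 with control siRNA, 11.71, 11.95 and 11.89 with GANP siRNA, and 11.74, 11.91 and 12.03 with NXF1 siRNA. Both depletions lay above all controls. Its log2 fold change was 0.33 (SE 0.09, adjusted p = 0.021) after NXF1 siRNA and 0.29 (SE 0.09, adjusted p = 0.065) after GANP siRNA. A fit with a replicate block for the experiment called the latter up (adjusted p = 0.011). The call after NXF1 siRNA was lost without control siRNA array 1 (adjusted p = 0.072) or 2 (adjusted p = 0.051), or NXF1 siRNA array 2 (adjusted p = 0.061) or 3 (adjusted p = 0.092), and the second probe gave 0.19 (adjusted p = 0.29).

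PFKFB4, the form known from testis and hypoxic tumour cells, fell after both depletions. It had log2 signals of 10.61, 10.77 and 10.86 with control siRNA, 10.46, 10.33 and 10.44 with GANP siRNA, and 10.32, 10.03 and 10.18 with NXF1 siRNA. The 3 groups did not overlap, and the NXF1 siRNA arrays were the lowest. The level after NXF1 siRNA was 0.67 times that of control (log2 fold change -0.57, SE 0.10, adjusted p = 8.3e-04), the largest fall of the 31 genes in that comparison, and the call held without any 1 array. After GANP siRNA the log2 fold change was -0.33 (SE 0.10, adjusted p = 0.040). That call was lost without control siRNA array 2 (adjusted p = 0.12) or 3 (adjusted p = 0.14), GANP siRNA array 1 (adjusted p = 0.061), 2 (adjusted p = 0.13) or 3 (adjusted p = 0.082), or NXF1 siRNA array 3 (adjusted p = 0.051).

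PFKFB2, the form known from heart, had log2 signals of 6.88, 6.88 and 7.13 with control siRNA, 7.15, 6.97 and 7.31 with GANP siRNA, and 7.34, 7.41 and 7.40 with NXF1 siRNA. The NXF1 siRNA arrays were the highest, and the GANP siRNA arrays overlapped the controls. Its log2 fold change was 0.42 (SE 0.10, adjusted p = 0.0069) after NXF1 siRNA and 0.18 (SE 0.10, adjusted p = 0.29) after GANP siRNA. The call held without any 1 array but not across probes. The other probes of PFKFB2 gave -0.23 (adjusted p = 0.16) and 0.02 (adjusted p = 0.93) after NXF1 siRNA, and the mean of the 3 probes gave 0.07 (adjusted p = 0.53).

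**Figure D2:**
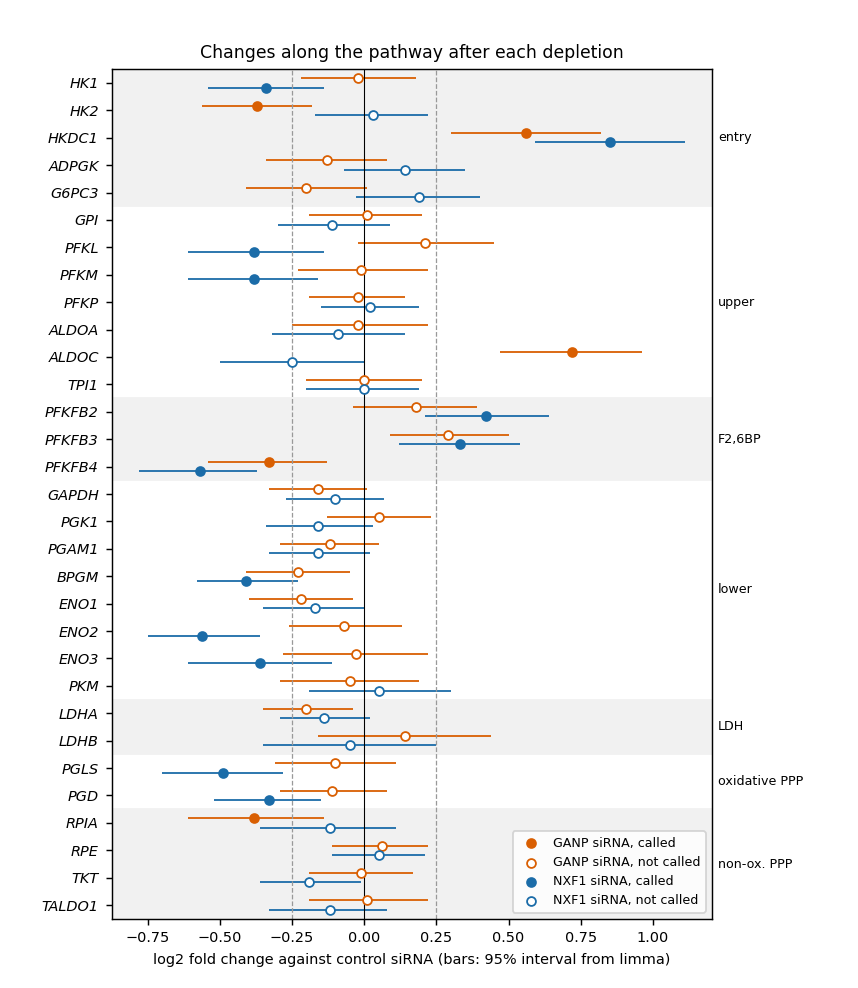
Log2 fold change against control siRNA (horizontal axis) of the 31 genes in pathway order (vertical axis), with 95% intervals from limma, GANP siRNA in orange and NXF1 siRNA in blue, and filled points for called genes. Dashed lines mark the thresholds of -0.25 and 0.25, and the filled blue points of ENO2, PGLS and PFKFB4 lie farthest to the left.

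The trunk of the pathway, from aldolase to lactate, gave some of the brightest probes and no calls for its main isozymes. Of the 8 genes ALDOA, TPI1, GAPDH, PGK1, PGAM1, ENO1, PKM and LDHA, 0 were called in limma in any of the 3 comparisons. At an unadjusted p under 0.05, 2 of the 8 passed after GANP siRNA, 0 after NXF1 siRNA and 1 in the direct comparison, against 26.0%, 37.2% and 32.5% of all genes tested. At the shares called among all genes only 1 or 2 of 8 would be called in a comparison, so nothing is read from the 0. Their log2 fold changes ran from -0.22 to 0.05 after GANP siRNA and from -0.17 to 0.05 after NXF1 siRNA. GAPDH, which makes the NADH of glycolysis and often serves as a reference mRNA, had log2 fold changes of -0.16 (95% interval -0.33 to 0.01) and -0.10 (-0.27 to 0.07). PGK1, phosphoglycerate kinase, which makes the first ATP of the pathway, had 0.05 (-0.13 to 0.23) and -0.16 (-0.34 to 0.03). PKM, pyruvate kinase, which makes the last, had -0.05 (-0.29 to 0.19) and 0.05 (-0.19 to 0.30), and none of its 3 probes was called in either comparison. The intervals of GAPDH, PGK1 and PKM after NXF1 siRNA, and of GAPDH and PKM after GANP siRNA, reach past the threshold of 0.25, so that changes of this size cannot be told from no change with 3 arrays per group. GAPDH, PGK1, PGAM1, ENO1 and LDHA have processed pseudogenes, and whether the probes also read these was not tested.

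PGAM1, phosphoglycerate mutase, had log2 fold changes of -0.12 (adjusted p = 0.38) and -0.16 (adjusted p = 0.18) by its brightest probe. The second probe of PGAM1 was called down after both GANP siRNA (-0.28, adjusted p = 0.036) and NXF1 siRNA (-0.34, adjusted p = 0.0063), so the gene rests on which probe is read. BPGM, which converts 1,3-bisphosphoglycerate into 2,3-bisphosphoglycerate, the regulator of haemoglobin in red cells, had log2 signals of 8.78, 8.69 and 8.64 with control siRNA, 8.53, 8.35 and 8.53 with GANP siRNA, and 8.29, 8.23 and 8.36 with NXF1 siRNA. All arrays of either depletion lay below the controls. BPGM fell after NXF1 siRNA (log2 fold change -0.41, SE 0.08, adjusted p = 0.0027), a call that held without any 1 array, and had -0.23 (SE 0.08, adjusted p = 0.087) after GANP siRNA.

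Enolase makes phosphoenolpyruvate, with ENO1 as the ubiquitous form, ENO2 as the neuronal form and ENO3 as the muscle form. ENO2 and ENO3 fell after NXF1 siRNA and ENO1 was not called. ENO2 had log2 signals of 9.06, 9.04 and 9.15 with control siRNA, 9.10, 9.02 and 8.94 with GANP siRNA, and 8.70, 8.39 and 8.49 with NXF1 siRNA. The NXF1 siRNA arrays lay below all others and the other groups overlapped. For ENO2 the log2 fold change was -0.56 (SE 0.09, adjusted p = 7.6e-04), a level 0.68 times that of control, after NXF1 siRNA and -0.07 (SE 0.09, adjusted p = 0.72) after GANP siRNA. Its call after NXF1 siRNA held without any 1 array.

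ENO3 had log2 signals of 8.18, 8.20 and 8.41 with control siRNA, 8.07, 8.21 and 8.44 with GANP siRNA, and 7.98, 7.72 and 8.04 with NXF1 siRNA. The NXF1 siRNA arrays were the lowest, with experiment 2 below the others. The log2 fold change of ENO3 after NXF1 siRNA was -0.36 (SE 0.12, adjusted p = 0.037). It was lost without control siRNA array 2 (adjusted p = 0.066) or 3 (adjusted p = 0.14) or NXF1 siRNA array 2 (-0.26, adjusted p = 0.15), and as the mean of its 2 probes (-0.22, adjusted p = 0.090). ENO1 had log2 signals of 15.59, 15.53 and 15.56 with control siRNA, 15.28, 15.31 and 15.43 with GANP siRNA, and 15.51, 15.31 and 15.34 with NXF1 siRNA. Every array of either depletion lay below the controls, and the log2 fold changes of -0.22 (SE 0.08, adjusted p = 0.10) and -0.17 (SE 0.08, adjusted p = 0.14) were not called.

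Neither lactate dehydrogenase gene was called against control siRNA. LDHA, the muscle-type subunit that favours lactate, had log2 signals of 14.96, 14.87 and 14.97 with control siRNA, 14.68, 14.79 and 14.75 with GANP siRNA, and 14.80, 14.78 and 14.82 with NXF1 siRNA. All 6 arrays of the depletions were below the controls, by -0.20 (SE 0.07, adjusted p = 0.10) after GANP siRNA and -0.14 (SE 0.07, adjusted p = 0.20) after NXF1 siRNA. LDHB, the heart-type subunit, had 0.14 (95% interval -0.16 to 0.44) and -0.05 (-0.35 to 0.25), with control signals spread over 12.68, 12.94 and 13.10.

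In the oxidative arm of the pentose phosphate pathway both measured genes fell after NXF1 siRNA and neither was called after GANP siRNA. PGLS, the lactonase of the second step, had log2 signals of 10.56, 10.53 and 10.43 with control siRNA, 10.45, 10.46 and 10.29 with GANP siRNA, and 10.22, 9.92 and 9.90 with NXF1 siRNA. The NXF1 siRNA arrays lay below all others. For PGLS the log2 fold change was -0.49 (SE 0.10, adjusted p = 0.0026), a level 0.71 times that of control, after NXF1 siRNA and -0.10 (SE 0.10, adjusted p = 0.56) after GANP siRNA. PGD, which oxidises 6-phosphogluconate and makes the second NADPH, had log2 signals of 12.78, 12.80 and 12.80 with control siRNA, 12.53, 12.76 and 12.78 with GANP siRNA, and 12.51, 12.37 and 12.50 with NXF1 siRNA. Its NXF1 siRNA arrays were again the lowest of all, and the GANP siRNA array of experiment 1 came close to them. PGD had log2 fold changes of -0.33 (SE 0.08, adjusted p = 0.011) after NXF1 siRNA and -0.11 (SE 0.08, adjusted p = 0.49) after GANP siRNA. The calls of PGLS and PGD after NXF1 siRNA held without any 1 array.

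Of the 4 genes of the non-oxidative arm, which interconverts pentose and hexose phosphates, RPIA fell after GANP siRNA and 0 were called after NXF1 siRNA (1 had an unadjusted p under 0.05 in limma). RPIA, the isomerase that yields ribose phosphate, had log2 signals of 11.13, 11.12 and 11.39 with control siRNA, 10.68, 10.83 and 10.99 with GANP siRNA, and 10.92, 11.11 and 11.23 with NXF1 siRNA. The GANP siRNA arrays lay below all controls, and the NXF1 siRNA arrays overlapped both groups. The log2 fold change of RPIA was -0.38 (SE 0.11, adjusted p = 0.044) after GANP siRNA and -0.12 (SE 0.11, adjusted p = 0.46) after NXF1 siRNA. The call was lost without control siRNA array 1 (adjusted p = 0.060), 2 (adjusted p = 0.074) or 3 (adjusted p = 0.15), GANP siRNA array 1 (adjusted p = 0.14) or 2 (adjusted p = 0.11), or NXF1 siRNA array 2 (adjusted p = 0.060). RPE, the epimerase of the same intermediate, had 0.06 (95% interval -0.11 to 0.22) and 0.05 (-0.11 to 0.21). TKT, transketolase, had -0.01 (-0.19 to 0.17) and -0.19 (-0.36 to -0.01, adjusted p = 0.12), and TALDO1, transaldolase, 0.01 (-0.19 to 0.22) and -0.12 (-0.33 to 0.08).

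The balance between isozymes of a step was compared as the log2 ratio of their signals within an array, over 15 pairs in 3 comparisons. The size of a ratio depends on the probes, and only its change between groups was read. An exact two-sided permutation test of 3 arrays against 3 cannot go below p = 0.10, so none of the 45 tests could pass 0.05. In 27 of the 45 the groups did not overlap. The pairs share genes and arrays, and the share for pairs of other genes was not computed, so nothing is read from this count. The HK1/HK2 ratio was higher than in controls with GANP siRNA and lower with NXF1 siRNA, without overlap between any of the groups. Its values were 3.90, 3.89 and 3.77 with control siRNA, 4.29, 4.04 and 4.29 with GANP siRNA, and 3.61, 3.19 and 3.67 with NXF1 siRNA. The change was 0.35 (SD 0.14 and 0.07, n = 3, exact p = 0.10, adjusted p = 0.19) with GANP siRNA and -0.36 (SD 0.26 and 0.07, n = 3, exact p = 0.10, adjusted p = 0.15) with NXF1 siRNA. The HK1/HKDC1 ratio changed by -0.58 with GANP siRNA and by -1.19 with NXF1 siRNA, the largest change over all pairs.

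The ALDOA/ALDOC ratio was 2.31, 1.69 and 2.03 with control siRNA, 1.48, 1.22 and 1.14 with GANP siRNA, and 2.20, 2.19 and 2.13 with NXF1 siRNA. It was lower in all GANP siRNA arrays, by -0.73 against control siRNA, and the NXF1 siRNA arrays fell within the control range. The ENO1/ENO2 ratio was 6.53, 6.49 and 6.41 with control siRNA, 6.18, 6.29 and 6.49 with GANP siRNA, and 6.81, 6.92 and 6.85 with NXF1 siRNA. It was higher in all NXF1 siRNA arrays, by 0.38, and overlapped the controls with GANP siRNA. The PFKFB3/PFKFB4 ratio was 0.88, 0.82 and 0.75 with control siRNA, 1.25, 1.62 and 1.45 with GANP siRNA, and 1.42, 1.88 and 1.85 with NXF1 siRNA. It was higher in all 6 depleted arrays, by 0.62 and 0.90. Among the phosphofructokinases, PFKL/PFKP changed by -0.39 and PFKM/PFKP by -0.40 with NXF1 siRNA, without overlap, while PFKL/PFKM changed by 0.01 (exact p = 1.0). The LDHA/LDHB ratio changed by -0.33 with GANP siRNA, without overlap, and by -0.09 with NXF1 siRNA, with overlap.

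**Figure D3:**
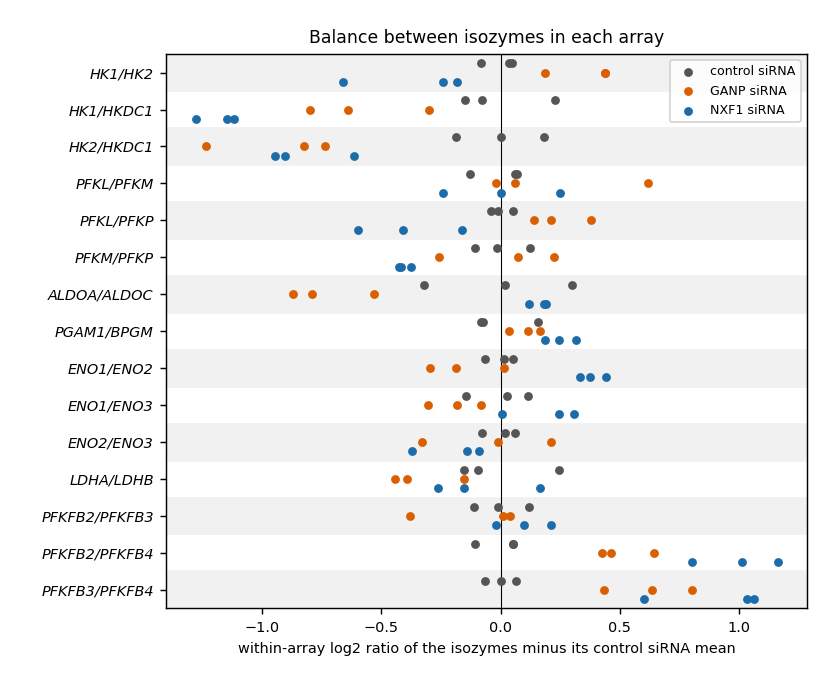
Log2 ratio of the signals of each of 15 isozyme pairs within an array, minus its mean over the 3 control siRNA arrays (horizontal axis), with 1 row per pair and 1 point per array. The GANP siRNA points of HK1/HK2 lie to the right and the NXF1 siRNA points to the left of the controls, and PFKFB3/PFKFB4 lies to the right in all 6 depleted arrays.

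In the direct comparison 6 of the 31 genes (19.4%) were higher and 2 (6.45%) lower in GANP-depleted than in NXF1-depleted cells, against 11.3% higher and 8.29% lower among all genes tested. The 6 were HK1, PFKL, PFKM, ALDOC, ENO2 and PGLS and the 2 were HK2 and G6PC3. ALDOC differed by 1.95-fold (log2 difference 0.97, SE 0.11, adjusted p = 1.4e-04), PFKL by 0.59 (SE 0.11, adjusted p = 0.0026) and ENO2 by 0.49 (SE 0.09, adjusted p = 0.0027) on the log2 scale. The PFKL difference was 0.58, 0.58 and 0.62 within experiments 1, 2 and 3, although its difference from control siRNA varied between experiments. HK2 differed by -0.40 (SE 0.09, adjusted p = 0.0074), and this call was lost as the mean of its probes (-0.30, adjusted p = 0.056). G6PC3 had log2 signals of 8.18, 8.13 and 7.89 with GANP siRNA and 8.50, 8.50 and 8.36 with NXF1 siRNA, a log2 difference of -0.39 (SE 0.10, adjusted p = 0.015). The groups of G6PC3 did not overlap, while each overlapped the controls at 8.40, 8.27 and 8.12.

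Some of these calls were lost when 1 array was left out, although the differences kept their sign. The call of G6PC3 was lost without GANP siRNA array 3 (adjusted p = 0.061) or NXF1 siRNA array 2 (adjusted p = 0.057). PGLS (0.39, SE 0.10, adjusted p = 0.015) was lost without GANP siRNA array 2 (adjusted p = 0.059) or NXF1 siRNA array 2 (adjusted p = 0.063) or 3 (adjusted p = 0.057). PFKM (0.37, SE 0.10, adjusted p = 0.024) was lost without GANP siRNA array 2 (adjusted p = 0.098) or 3 (adjusted p = 0.082), or NXF1 siRNA array 1 (adjusted p = 0.058) or 2 (adjusted p = 0.076). HK1 (0.32, SE 0.09, adjusted p = 0.026) was lost without GANP siRNA array 1 (adjusted p = 0.072), 2 (adjusted p = 0.067) or 3 (adjusted p = 0.051) or NXF1 siRNA array 2 (adjusted p = 0.10), as the mean of its probes (adjusted p = 0.060) and in a fit of these 2 groups alone (adjusted p = 0.051). The calls of ALDOC, PFKL, ENO2 and HK2 held without any 1 array. In the fit with the replicate block, HKDC1 (-0.28, adjusted p = 0.041), ADPGK (-0.27, adjusted p = 0.049) and RPIA (-0.25, adjusted p = 0.015) were lower and ENO3 (0.33, adjusted p = 0.012) higher with GANP siRNA, where without the block their adjusted p was 0.12, 0.074, 0.13 and 0.063 in that order.

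Brighter and dimmer probes were compared because the trunk enzymes gave some of the highest signals on the arrays. At a boundary of a mean log2 signal of 12, set after the values were seen, 14 of the 31 genes lay above and 17 at or below it. Of the 14, 0 were called after GANP siRNA in limma (64 of 1211 equally bright genes were down and 69 up), and HK1 and PGD fell after NXF1 siRNA (142 of 1211 down and 145 up). Of the 17 dimmer genes, 7 fell and 3 rose after NXF1 siRNA, against 14.3% and 11.6% of 11907 dimmer genes. In the bright set 13 of the 14 genes had a log2 fold change below 0 after NXF1 siRNA, with a median of -0.13, whereas 600 of the 1211 did. After GANP siRNA 9 of the 14 and 612 of the 1211 were below 0. Of the 17 dimmer genes 9 were below 0 after NXF1 siRNA (52.9%, against 50.8% of the dimmer genes tested). The genes share the same arrays, so these counts are not of independent values.

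**Figure D4:**
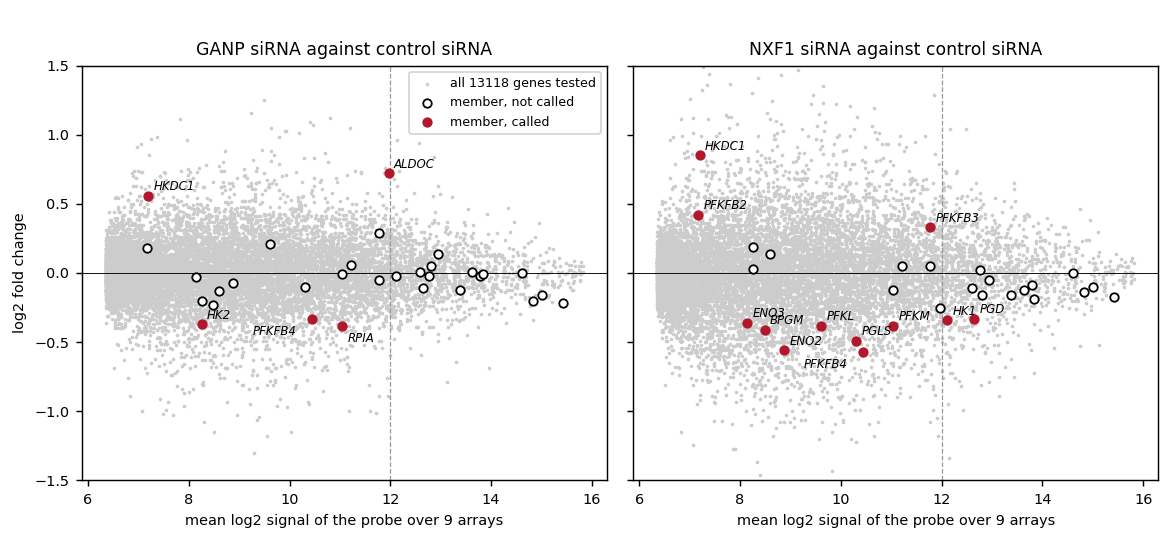
Log2 fold change (vertical axis) against the mean log2 signal of the probe over 9 arrays (horizontal axis), for GANP siRNA (left) and NXF1 siRNA (right), with all 13118 genes in grey, the 31 genes as open points and called ones in red with their names. The dashed line marks a log2 signal of 12, and 1 and 9 of all genes lie beyond the vertical limit of 1.5 and are not drawn.

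The neighbouring genes of carbohydrate metabolism were read from lists of other isozymes, transporters and linked pathways. Of 18 glucose and lactate transporter genes 9 were tested, and 1 rose after GANP siRNA and 3 after NXF1 siRNA, with none down in either. These and the counts of the other lists stand beside 6.28% of all genes up and 5.90% down after GANP siRNA, and 11.6% up and 14.0% down after NXF1 siRNA, and every list lay within 2 genes of the number these shares give. SLC2A8, an intracellular hexose transporter, rose after both (log2 fold changes 0.34, adjusted p = 0.021, and 0.40, adjusted p = 0.0036). SLC2A3, the high-affinity glucose transporter known from neurons, rose after NXF1 siRNA (0.54, adjusted p = 0.0016), as did BSG, the chaperone of lactate transporters (0.64, adjusted p = 0.012). SLC2A1, the main glucose transporter of tumour cells, had -0.13 (adjusted p = 0.61) and 0.39 (adjusted p = 0.053), and differed between the depletions (-0.52, adjusted p = 0.018). Of 8 genes of gluconeogenesis 4 were tested, and after NXF1 siRNA PCK2, the mitochondrial carboxykinase, rose (0.41, adjusted p = 0.015) and SLC37A4, which carries glucose phosphate into the endoplasmic reticulum, fell (-0.50, adjusted p = 0.014).

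Of 19 genes of glycogen metabolism 16 were tested, and 2 rose after GANP siRNA, while 3 rose and 2 fell after NXF1 siRNA, numbers near the background (12.5% up, and 18.8% up and 12.5% down). GSK3B, a kinase that inhibits glycogen synthase, rose after both (log2 fold changes 0.74, adjusted p = 9.2e-04, and 0.91, adjusted p = 6.8e-05), and so did UGP2, which makes UDP-glucose (0.47, adjusted p = 0.0039, and 0.26, adjusted p = 0.041). After NXF1 siRNA PYGB, a glycogen phosphorylase, rose (0.39, adjusted p = 0.0033) while PHKA2, a phosphorylase kinase subunit (-0.35, adjusted p = 0.011), and PGM1, phosphoglucomutase (-0.28, adjusted p = 0.010), fell. Of 16 other isozymes of glycolysis 8 were tested. PGAM5, a mitochondrial phosphatase of the mutase family, fell after GANP siRNA (-0.42, adjusted p = 0.018), GALM, the aldose mutarotase, rose (0.26, adjusted p = 0.037). LDHD, the D-lactate dehydrogenase, was called down after NXF1 siRNA, but its NXF1 siRNA signals of 6.23, 6.31 and 6.44 lay around the filter of 6.35, so no size is given. Of 11 other pentose phosphate genes 8 were tested and SHPK, sedoheptulokinase, fell after NXF1 siRNA (-0.30, adjusted p = 0.016). Of 10 regulators of glycolytic transcription 9 were tested. MYC fell after GANP siRNA (-0.47, adjusted p = 0.0012) and had -0.22 (adjusted p = 0.037) after NXF1 siRNA, inside the fold threshold. MLXIPL, the carbohydrate response factor, rose after GANP siRNA (0.40, adjusted p = 0.046) and fell after NXF1 siRNA (-0.43, adjusted p = 0.018), a log2 difference between the depletions of 0.83 (adjusted p = 5.5e-04). HIF1A, the hypoxia factor, had 0.16 (adjusted p = 0.46) and 0.05 (adjusted p = 0.82). Between the depletions 1 transporter gene was lower with GANP siRNA (SLC2A1), 3 glycogen genes were higher (PGM1, PHKA2 and EPM2A), 1 isozyme gene was higher (LDHD, with the same limit), and of the regulators MLXIPL was higher and MYC lower (-0.26, adjusted p = 0.022).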

How the data were processed

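Cytoplasmic RNA of 9 HCT116 cultures, 3 per siRNA, was hybridised to Illumina HumanWG-6 v3 BeadChips, and groups and experiment numbers came from the sample titles. As the methods describe, the authors read the arrays in BeadStudio, quantile normalized them and used lumi (its version is not given in the sources used here) and limma. The deposited value table holds these intensity values on the linear scale for 48803 probes. A second deposited table, with 18 columns of signals and detection p-values that no label pairs with a sample, was not used.

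Intensities were corrected with normexp (offset 50), quantile normalized again and taken to log2 with limma 3.58.1 in R 4.3.3. The repeated normalization had been planned for raw signals, and the authors' values without it were an alternative. Probes with 1 gene symbol (27578, against 13 with several and 21212 with none) and a mean log2 signal over 6.35, the median of all probes, were kept, 0 symbols needed updating, and the brightest probe stood for a gene. The 9 arrays were fitted together (6 residual and 6.43 prior degrees of freedom), with p-values adjusted by Benjamini and Hochberg over 13118 genes in each comparison. The code was tested on simulated data.

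Arrays with the same experiment number in different groups, which the titles assign to 1 experiment, deviated together (9 pairs, correlation across genes 0.11 to 0.46, against -0.40 to 0.12 in 18 other pairs), so the numbers pair the arrays. The study's methods name no block, and the fit without it is the main one. Calls, and their losses without 1 array, are of this fit unless the block is named. Leaving out arrays was not run together with the block. No 2 arrays held identical values. The members, lists and settings were chosen with earlier results of these data known. Every gene of the 31 is named, and of the other lists up to 4 called genes with the largest change in each comparison, with HIF1A chosen after its values were seen. Some genes of these other lists are not reported here. Alternatives were the replicate block, the authors' values, other background, filter, probe and threshold settings, and leaving out each array. The test of every probe on its own, in a fit of all kept probes, and the boundary at a log2 signal of 12 were added after the data were seen.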

Additional observations from a re-analysis of the deposited data

How the results depend on the processing

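Of 25 calls among the 31 genes over the 3 comparisons, 10 held under every alternative run, 13 without each array, and 12 were lost without at least 1 array. The 10 were HKDC1 after either siRNA, ALDOC after GANP siRNA, PFKFB4, BPGM, ENO2 and PGLS after NXF1 siRNA, and ALDOC, PFKL and ENO2 between the depletions. None of the 25 changed sign, and 9 of 68 values not called passed under at least 1 alternative. Without 1 array at a time, the genes that fell numbered 0 to 3 after GANP siRNA and 5 to 10 after NXF1 siRNA, and those higher and lower in GANP-depleted than in NXF1-depleted cells 3 to 7 and 1 to 2. The falls after GANP siRNA numbered 0 without control siRNA array 3, and 1 without control siRNA array 2 or any 1 of the GANP siRNA arrays. Over all genes tested these falls also dropped, from 774 to 493 without control siRNA array 3 and 392 without control siRNA array 2. They numbered 610, 508 and 436 over all genes without GANP siRNA array 1, 2 or 3. Without NXF1 siRNA array 2 the falls after NXF1 siRNA numbered 5, and 3 genes were higher between the depletions, as they were without GANP siRNA array 2. Over all genes the falls without NXF1 siRNA array 2 numbered 1511, against 1842 with every array. The genes higher between the depletions numbered 1094 without NXF1 siRNA array 2 and 1058 without GANP siRNA array 2, against 1483. The losses are therefore not read as particular to the 31 genes. With the replicate block 5 genes were lower in GANP-depleted than in NXF1-depleted cells, against 2 (1404 of all genes tested, against 1088). The block ended none of the 25 calls, and each had a lower adjusted p in limma than in the main fit. With the block the adjusted p was 0.0032 for RPIA after GANP siRNA and 0.0015 for G6PC3 between the depletions. After NXF1 siRNA it was 0.0034 for PFKM, 0.0074 for PFKL, 0.0063 for ENO3 and 0.0031 for PFKFB3. With a normexp offset of 16 only 1 gene fell after GANP siRNA, since PFKFB4 (adjusted p = 0.065) and RPIA (adjusted p = 0.075) were lost, and ENO3 after NXF1 siRNA had adjusted p = 0.054. Over all genes 623 fell after GANP siRNA with this offset, against 774 in the main fit. With the mean of a gene's probes 1 gene was lower in GANP-depleted than in NXF1-depleted cells (1055 of all genes tested, against 1088 in the main fit). At an adjusted p under 0.01 in limma, 0 genes fell after GANP siRNA and 4 after NXF1 siRNA. At that threshold 3 were higher and 1 lower in GANP-depleted than in NXF1-depleted cells. Of all 13118 genes tested, 307 fell after GANP siRNA and 1189 after NXF1 siRNA, and 849 were higher and 483 lower between the depletions. With so few of all genes down after GANP siRNA, nothing is read from the 0. At an unadjusted p under 0.05, 9 of the 31 (29.0%) passed after GANP siRNA in either direction, against 26.0% of all genes tested. The cause of these changes was not tested. Dim probes such as those of HKDC1 and PFKFB2 lie close to the floor of the arrays, where fold changes can be understated, which was not tested for these probes. The rise of PFKFB2 after NXF1 siRNA was not repeated by its other probes.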
